A study of Rattus norvegicus with 8 samples.

Results

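The insulin receptor signalling chain is described here by 10 transcripts: the receptor Insr, its substrates Irs1 and Irs2, the kinase subunit and kinases Pik3r1, Akt1 and Akt2, the transcription factor Foxo1, and the brakes Grb10, Grb14 and Ptpn1. Its members are all probes, outside the array's controls, that carry one of these gene names. They number 22 of 46883 probes and 10 of 25512 gene names. The arrays measured liver RNA of male Sprague Dawley rats, an outbred laboratory strain. The high-fat group (n = 4) received a 60% fat diet over 12 weeks, and the control group (n = 4) a normal diet for the same time. Both groups carry a labelled weight of 180 to 200 g, and the time of weighing is not given in the sources used here. Nothing in the labels ties each sample to its own rat, and the p-values below reflect sample-to-sample spread, which may be technical. The series is about factors that go with insulin resistance under a high-fat diet, and these transcripts code for the proteins through which insulin acts.

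When insulin binds its receptor, the receptor phosphorylates the substrates Irs1 and Irs2, which recruit phosphoinositide 3-kinase, and the lipid this enzyme makes brings Akt to the membrane to be switched on. In liver, Akt turns on glycogen and fat synthesis and keeps Foxo1 out of the nucleus, where Foxo1 would otherwise raise genes of glucose production and Irs2 itself. Much of this control runs through phosphorylation, which an array of transcripts does not measure.

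Intensities are given as log2 values relative to the 75th percentile of each array's probes well above background, so 0 is the level of that percentile. A probe's level depends on its own sequence, and levels are therefore compared between arrays and not between genes. All 8 hepatocyte markers on the fixed list, albumin among them, were well above background on all 8 arrays. Of these, 0 of 8 passed an adjusted p under 0.05 in limma, with log2 changes from -0.14 to 0.98. The highest was that of Cps1 (unadjusted p = 0.014, adjusted p = 0.199, limma), the only hepatocyte marker with an unadjusted p under 0.05. Of 5 exocrine pancreas markers, 0 were above background on at least 4 arrays, and of the skeletal muscle list 2 of 5 were. Of 5 stellate cell markers tested, Lrat and Reln rose and 3 did not pass, with log2 changes over the list from -0.70 to 7.20. The 7.20 is that of Lrat, whose controls lay between -10.04 and -7.61. A Grb10 probe that was well above background on 0 of 8 arrays lay between -10.04 and -7.60 in controls. The size of the Lrat change thus rests on control values near background. Of 4 lymphocyte markers tested, Cd3g fell and 3 did not pass (-1.44 to 0.31). None passed among 4 erythroid markers (-0.29 to 1.43), 6 macrophage and Kupffer cell markers (-2.38 to -0.04) and 5 endothelial markers (-0.37 to 0.60). In these 3 lists, 3 of 4, 2 of 6 and 1 of 5 had an unadjusted p under 0.05 in limma. Of all genes, 15.6% had an unadjusted p under 0.05 and 0.877% passed. In bulk liver, fewer cells of a type and less RNA per cell cannot be told apart. Control replicate 1 and high-fat replicate 1 had the fewest probes well above background, 50.4% and 56.4%, against 64.3% to 71.9% on the others. The number of arrays limits the precision.

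Akt1 and Akt2 code for closely related kinases, and their probes are shown because the arrays have to tell them apart. Over the 59 aligned bases of their brightest probes, 43 are identical and 16 differ, with the differing bases in capitals. The Akt1 probe lies at chr6:137641146-137641205 on the minus strand of rn4, and the files give no position for this Akt2 probe. Whether each probe lies in an exon or a UTR is not analysed here.
Akt1: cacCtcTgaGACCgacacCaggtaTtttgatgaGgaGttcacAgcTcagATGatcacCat
Akt2: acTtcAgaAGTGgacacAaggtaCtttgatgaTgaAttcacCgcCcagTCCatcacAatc
The other Akt2 probe, at chr1:82725226-82725285 on the plus strand, shares 45 bases with the first, so the 2 Akt2 probes are not independent measurements.
Akt2, other probe: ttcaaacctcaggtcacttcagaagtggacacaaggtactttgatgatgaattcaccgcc

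No change with the high-fat diet was detected for any of the 10 transcripts. Of 22 probes, 21 were well above background on at least 4 arrays and were tested, and 0 passed an adjusted p under 0.05 in limma, against 0.907% of all 31546 tested probes. At an unadjusted p under 0.05 the count was also 0 of 21, against 15.4% of all probes, and 0 of 21 had groups that did not overlap, against 10.6%. The smallest adjusted p of any probe was 0.477, for Grb10. Leaving out 1 array lowered the number of called probes on the whole array from 286 to between 23 (without high-fat replicate 2) and 154 (without high-fat replicate 1), and it called none of the members.

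The size of change these arrays leave room for differed between the members. By the brightest probes, the 95% interval of the change lay within 1.5-fold in either direction for 4 of 10 members. These were Insr, Akt1, Grb14 and Ptpn1, and all 10 lay within 2-fold. For Insr this depended on the processing, since 1.5-fold is a log2 change of 0.585. Its upper limit was 0.56 in the main fit and 0.32 after normexp, another background correction. The limit was 0.61 with a trended and robust variance, 0.64 with array weights and 0.74 without the 2 dimmest arrays. Over the probes, 9 of 21 intervals lay within 1.5-fold and 20 of 21 within 2-fold, the exception being the dimmer Pik3r1 probe. The median log2 change over the 10 members was -0.004, against 0.003 over all 18595 genes tested. The median size of the change without regard to sign was 0.11 for the members and 0.21 for all genes. The median half-width of the interval was 0.46 for the members and 0.44 for all genes.

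**Figure D1:**
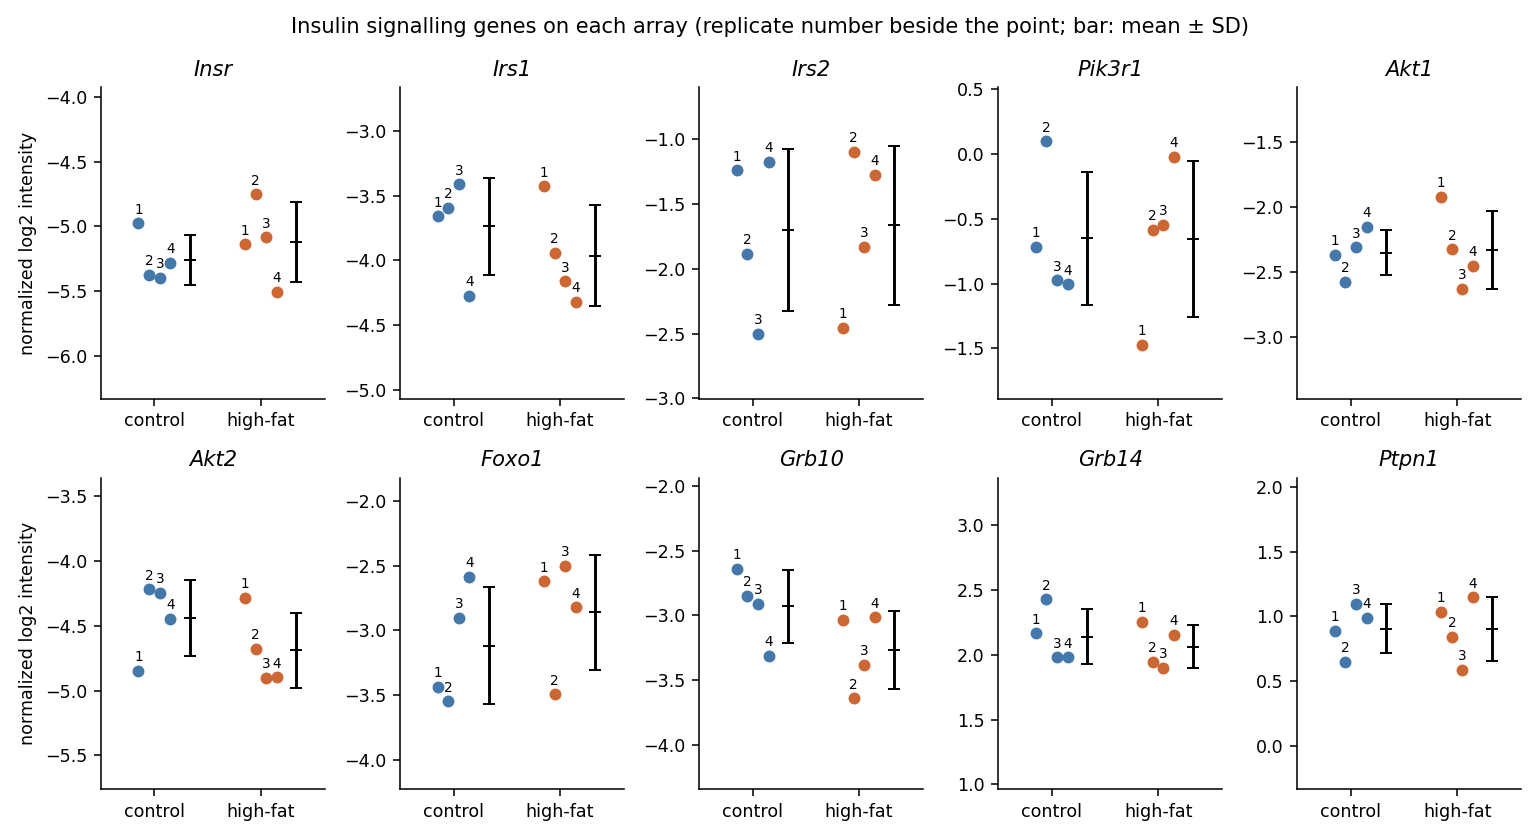
Normalized log2 intensity of the brightest probe of each gene on the 4 control (blue) and 4 high-fat (orange) arrays, with the replicate number beside each point and the mean ± SD as a bar; each panel spans the same range on the log2 scale. The groups overlap in all 10 panels, and Irs2 and Pik3r1 spread most within the groups.

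Insr, the receptor, was read by 1 probe. Its intensities were -4.98, -5.37, -5.40 and -5.28 in control replicates 1 to 4 and -5.14, -4.75, -5.08 and -5.50 in high-fat replicates 1 to 4. The highest and the lowest array were both high-fat, replicates 2 and 4. The log2 change was 0.14 with a 95% interval from -0.28 to 0.56 (adjusted p = 0.784, limma), which as a fold spans 0.82 to 1.47. The probe was dim, with a processed signal of 58.7 to 105, and after another background correction, normexp, the change was 0.003.

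Irs1, the substrate through which insulin acts in many tissues, was read by 3 probes. The brightest gave -3.66, -3.59, -3.41 and -4.27 in control replicates 1 to 4 and -3.43, -3.94, -4.16 and -4.32 in high-fat replicates 1 to 4. Replicate 4 was lowest in both groups, and the groups overlapped over most of their range. Its log2 change was -0.23 (95% interval -0.79 to 0.34, adjusted p = 0.728, limma), and the other probes gave -0.17 and -0.07.

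Irs2, the substrate whose transcript in liver is known to rise in fasting and fall after a meal, had the widest spread within groups of the members. Its brightest probe gave -1.24, -1.89, -2.50 and -1.17 in control replicates 1 to 4 and -2.46, -1.10, -1.83 and -1.28 in high-fat replicates 1 to 4. Control replicate 3 and high-fat replicate 1 were low, and the ranges of the groups nearly coincided. The other probe gave -2.19, -2.76, -3.51 and -2.17 in controls and -3.65, -2.21, -2.77 and -2.37 in high-fat samples. It put the same 2 arrays lowest, and its spots of 1 array differed by an SD of 0.08 (median) and at most 0.16. For Irs2 the log2 change was 0.04 (95% interval -0.83 to 0.90, adjusted p = 0.980, limma) by the first probe and -0.09 (-0.98 to 0.80) by the other. The arrays spanned 2.65-fold, and 85.7% of all genes had a smaller SD within groups than the 0.62 of Irs2. The intervals of both probes hold changes from -43.8% and -49.5% up to 87.0% and 73.9%.

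Pik3r1 codes for a regulatory subunit of phosphoinositide 3-kinase that binds the substrates. Its intensities were -0.72, 0.10, -0.98 and -1.01 in control replicates 1 to 4 and -1.47, -0.59, -0.55 and -0.02 in high-fat replicates 1 to 4. The arrays spanned 2.96-fold, with control replicate 2 highest and high-fat replicate 1 lowest. The log2 change was -0.006 (95% interval -0.80 to 0.78, adjusted p = 0.997, limma), and 0.18 (-0.65 to 1.01) by the dimmer probe. In the first row of the slide, which holds replicates 1 and 2 of both groups, the change was -0.72, and in the second row, with replicates 3 and 4, it was 0.71. The difference between the rows was not tested.

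**Figure D2:**
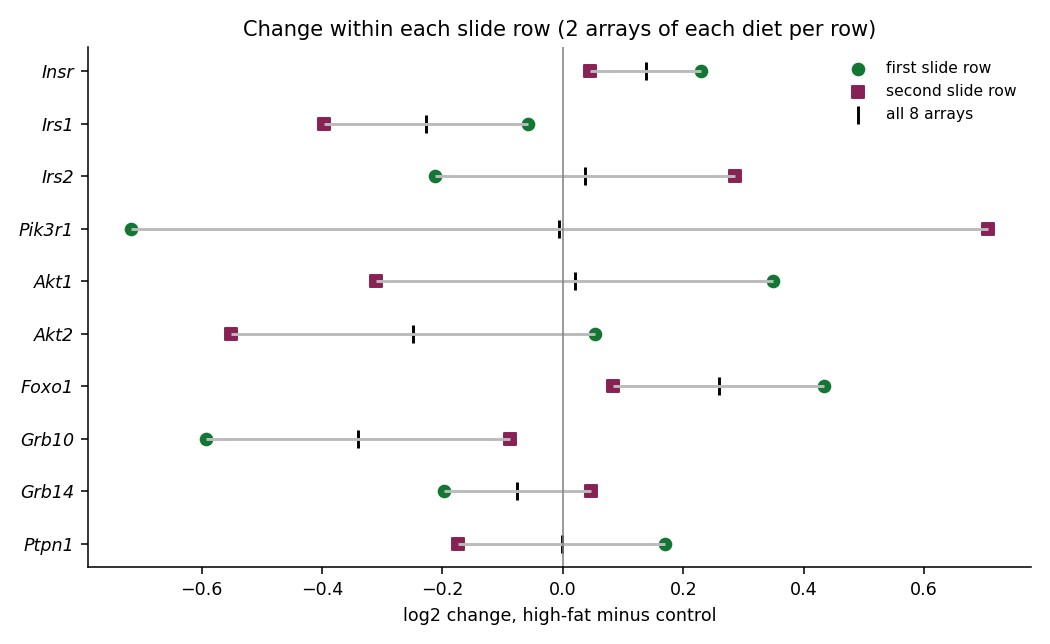
Log2 change (high-fat minus control) of each gene within the first slide row (circles), within the second (squares) and over all 8 arrays (bars); each row holds 2 arrays of each diet. Insr, Irs1, Foxo1 and Grb10 had the same sign in both rows, and Pik3r1 lay furthest apart, at -0.72 and 0.71.

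Akt1 and Akt2 code for the kinases that carry the signal on, and Akt2 is the form best known for insulin's metabolic action. Akt1 was at -2.37, -2.57, -2.31 and -2.15 in control replicates 1 to 4 and at -1.92, -2.32, -2.63 and -2.45 in high-fat replicates 1 to 4. Its high-fat arrays held both the highest and the lowest value, replicates 1 and 3. Akt1 had a log2 change of 0.02 (95% interval -0.39 to 0.43, adjusted p = 0.978, limma), with 0.03 by the other probe. Akt2 was at -4.85, -4.22, -4.25 and -4.45 in controls and at -4.28, -4.68, -4.90 and -4.90 in high-fat samples. Without replicate 1 of each group, the 2 dimmest arrays, the log2 change of Akt2 was -0.52. Over all 8 arrays it was -0.25 (95% interval -0.71 to 0.21, adjusted p = 0.616, limma) and -0.22 by the other probe, and the smallest adjusted p of Akt2 under any alternative was 0.188.

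Foxo1, the transcription factor that Akt restrains, was read by 1 probe. It was at -3.43, -3.55, -2.91 and -2.59 in control replicates 1 to 4 and at -2.62, -3.49, -2.50 and -2.82 in high-fat replicates 1 to 4. Its 3 lowest arrays were control replicates 1 and 2 and high-fat replicate 2. The log2 change was 0.26 (95% interval -0.39 to 0.91, adjusted p = 0.730, limma), and 0.07 without the 2 dimmest arrays.

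Grb10 and Grb14 code for adaptor proteins that bind the active receptor and dampen it. Grb10 was at -2.64, -2.85, -2.91 and -3.31 in control replicates 1 to 4 and at -3.04, -3.64, -3.38 and -3.01 in high-fat replicates 1 to 4. The 3 highest values were controls and the lowest 2 were high-fat, with control replicate 4 among the high-fat values. The log2 change of -0.34 (95% interval -0.80 to 0.12, adjusted p = 0.477, limma) was the largest of the members in size, and 69.6% of all genes had a smaller one. A dimmer Grb10 probe gave -0.06 (-0.49 to 0.37), and the third was well above background on 0 of 8 arrays and was not tested. Grb14 was at 2.16, 2.43, 1.98 and 1.98 in controls and at 2.25, 1.94, 1.90 and 2.15 in high-fat samples, so the groups overlapped almost wholly. Its log2 change was -0.08 (95% interval -0.42 to 0.27, adjusted p = 0.869, limma). Its other probes gave 0.04 (-0.37 to 0.46) and 0.23 (-0.26 to 0.71), and the last interval reaches beyond 1.5-fold.

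Ptpn1 codes for PTP1B, the phosphatase that removes phosphate from the receptor. Its intensities were 0.89, 0.65, 1.09 and 0.99 in control replicates 1 to 4 and 1.03, 0.84, 0.59 and 1.15 in high-fat replicates 1 to 4. The highest and lowest values were again both high-fat, replicates 4 and 3. Ptpn1 had a log2 change of -0.002 (95% interval -0.38 to 0.38, adjusted p = 0.998, limma), and both other probes gave -0.05. The tightest of the 3 probes had an SD within groups of 0.13, which 8.98% of all genes fell below, and an interval from -0.34 to 0.25, or a change between -21.3% and 18.6%.

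**Figure D3:**
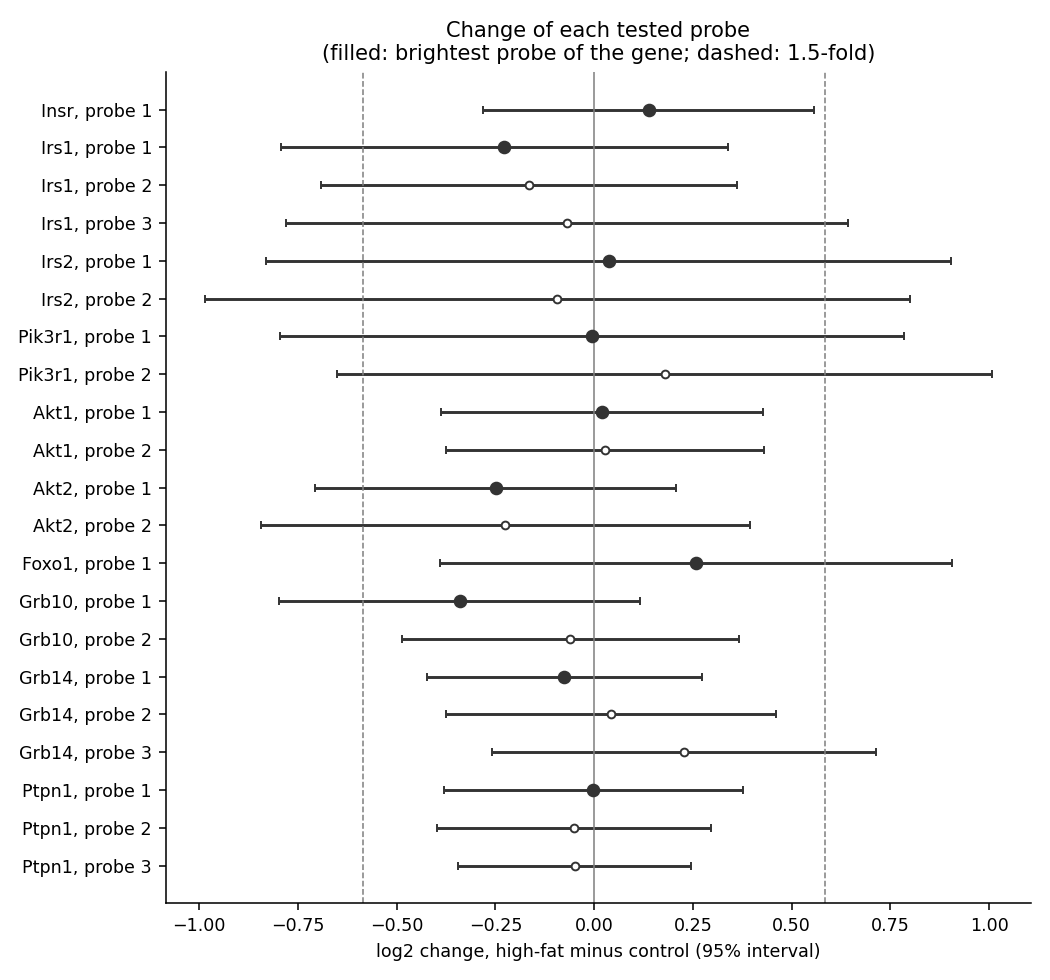
Log2 change (high-fat minus control) of each of the 21 tested probes with its 95% interval from limma; filled points mark the brightest probe of a gene and dashed lines mark 1.5-fold. All 21 intervals include 0, and those of Irs2 and Pik3r1 are the widest among the brightest probes.

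Whether related members moved apart was asked of 5 pairs, by an exact two-sided permutation test of their difference within each array, with p adjusted over the 5 pairs and 0.0286 the smallest p that 4 against 4 arrays allow. Akt2 minus Akt1 was -2.09 ± 0.37 in controls and -2.36 ± 0.07 in high-fat samples (SD, n = 4 each), a difference of -0.27 (exact p = 0.286, adjusted p = 0.714). Grb14 minus Grb10 moved by 0.26 (exact p = 0.2) and Irs2 minus Irs1 by 0.26 (exact p = 0.771). Ptpn1 minus Insr moved by -0.14 (exact p = 0.629) and Irs2 minus Foxo1 by -0.22 (exact p = 0.743). None of the 5 passed. A single pair at the smallest p could not have passed after adjustment over 5 pairs, so the test could not single out 1 pair.

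Irs2 was compared across the 8 arrays with Insr and with liver transcripts known to follow insulin or fasting, in a family of 6 relations. Pearson's r was 0.61 with Pck1, the rate-limiting enzyme of glucose production (permutation p = 0.094, adjusted p = 0.188), and -0.64 with the lipogenic factor Srebf1 (permutation p = 0.093, adjusted p = 0.188). Spearman's rho was 0.48 for Pck1 (adjusted permutation p = 0.359) and -0.64 for Srebf1 (adjusted permutation p = 0.289). Without the 2 arrays farthest from the median of the partner, r was 0.07 for Pck1 and -0.43 for Srebf1. Within the slide rows, of 4 arrays each, it was 0.25 and 0.92 for Pck1 and -0.24 and -0.93 for Srebf1. The relation with Fasn had r = -0.32, that with Insr 0.33 and that with Igfbp1, a gene that insulin represses, 0.18, with adjusted permutation p values from 0.512 to 0.655. None of these 5 relations passed. Fasn itself differed between the diets (log2 change -2.99), and its r was -0.88 within controls and -0.71 within high-fat samples. With values centred on their group mean, r was -0.80 for Fasn, -0.74 for Srebf1, 0.66 for Pck1, 0.34 for Insr and 0.25 for Igfbp1. The centred and within-group values were not tested.

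The clock genes were set beside Irs2 after its values were seen. Arntl, which codes for the clock factor BMAL1, was at -2.21 in control replicate 3 and -2.40 in high-fat replicate 1, the 2 arrays lowest for Irs2, and between -5.30 and -4.22 on the other 6. Because these arrays stand apart, no correlation is given for Arntl. Dbp, an output gene of the clock, followed Irs2 with r = 0.82 (permutation p = 0.011, adjusted over 10 relations p = 0.060) and rho = 0.64 (permutation p = 0.096, adjusted p = 0.342). That relation rests on 2 arrays, since r was 0.27 without the 2 farthest from the median of Dbp. Per1 gave r = 0.79 (adjusted permutation p = 0.060) and 0.16 without its 2 farthest arrays. For the rest of the list, r was -0.64 with Clock, 0.63 with Per3, 0.41 with Nr1d2, 0.33 with Cry1, -0.15 with Cry2, -0.11 with Per2 and -0.09 with Nr1d1. Their adjusted permutation p values ran from 0.204 to 0.821. Between the diets, 9 of 10 clock genes had a positive log2 change (median 0.56, against 0.003 over all genes). In limma 0 passed, against 0.877% of all genes. An unadjusted p under 0.05 was found for 4 of 10, against 15.6% of all genes. The time of day and the feeding state at sampling are not given in the sources used here, and their part in these values was not tested.

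**Figure D4:**
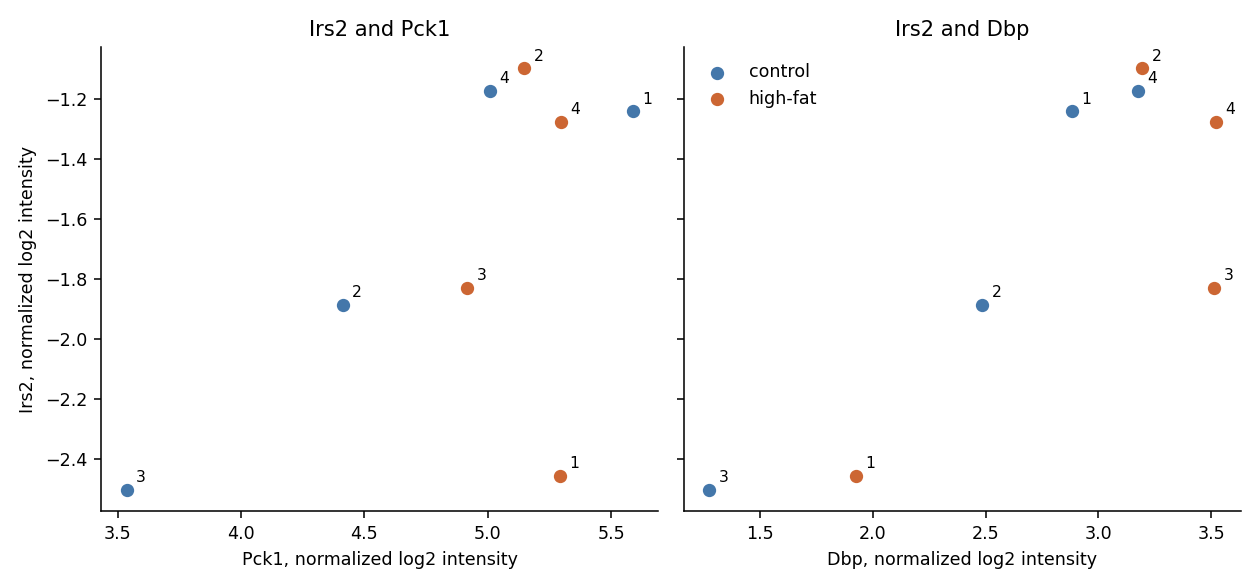
Normalized log2 intensity of Irs2 against Pck1 (left) and Dbp (right) on the 8 arrays, with replicate numbers beside the points. Control replicate 3 and high-fat replicate 1 lie lowest for Irs2 in both panels, and neither relation passed adjustment (adjusted p = 0.188 and 0.060, permutation).

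By Pearson's r over the 8 arrays among 11639 named genes, the patterns most like Irs2 were those of Zc3h8 (0.97), Ccdc77 (0.96) and Sfi1 (0.96). Nearest to Irs1 were Nae1 (0.97), Dab2ip (0.95) and Dusp10 (0.93), and nearest to Insr were Atp10d (0.92), Ccndbp1 (0.92) and Zyg11b (0.91). These were picked as the highest of many over few arrays and are descriptions. Another probe of Zc3h8 gave r = -0.11 with Irs2, and another of Ccndbp1 gave 0.04 with Insr.

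Around the members, 77 further signalling genes in 5 lists were counted by the brightest probe of each. Of 71 tested, 0 passed (limma adjusted p under 0.05, against 0.877% of all genes), and 9 (12.7%) had an unadjusted p under 0.05, against 15.6% of all genes. Their groups did not overlap in 7 (9.86%), against 11.1%. The median log2 change was 0.08, against 0.003 over all genes, with 49 of 71 values above 0. The share above 0 over all genes was not counted.

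Among receptors and adaptors (14 tested), the smallest p values belonged to the docking protein Gab1 (0.68, adjusted p = 0.192), Irs4 (0.58) and Enpp1 (0.27), an inhibitor of the receptor. Shc1, the adaptor towards Ras, was called by 1 of its 3 tested probes, which was at -2.26 ± 0.03 in controls and -2.87 ± 0.08 in high-fat samples (SD, n = 4 each), a log2 change of -0.61 (95% interval -0.86 to -0.36, adjusted p = 0.049, limma). That probe was singled out after its values were seen, and the brightest Shc1 probe gave -0.15 (adjusted p = 0.699) and the third -0.31 (adjusted p = 0.643). Of the phosphoinositide 3-kinase list (9 tested), the catalytic subunit Pik3cb had a log2 change of 0.49 (95% interval 0.16 to 0.81, adjusted p = 0.163), the smallest adjusted p of the 5 lists, with 0.27 for the regulatory subunit Pik3r2 and -0.25 for the lipid phosphatase Inppl1.

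Of kinases and targets further down (18 tested), Bad, a cell death protein that Akt phosphorylates, had a log2 change of 0.42 (adjusted p = 0.192), Eif4ebp1, a repressor of translation, -0.30, and Rptor, a subunit of the mTOR complex, -0.37. Of phosphatases and other brakes (18 tested), the protein kinase C form Prkce had -0.83 (adjusted p = 0.198), the docking protein Dok1 -0.45 and Socs2, a suppressor of cytokine signalling, 1.38. Of the Ras and MAP kinase arm (12 tested), the kinase Map2k1 had 0.38 (adjusted p = 0.182). None of these passed, and the median log2 changes of the 5 lists ran from -0.007 to 0.22.

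Of 14 tested liver transcripts known to respond to insulin, Irs2 among them, 1 fell and 0 rose, against 0.877% of all genes called. At an unadjusted p under 0.05 in limma the count was 3 of 14, against 15.6% of all genes. Fasn, fatty acid synthase, was the one that fell, with a log2 change of -2.99 (adjusted p = 0.025, limma), and the median of the list was -0.26. The desaturase Scd1 had -3.27 (95% interval -5.77 to -0.78, adjusted p = 0.210) and Insig2, which holds the sterol sensor in the endoplasmic reticulum, 0.77 (adjusted p = 0.320). Igfbp1 had -2.12 (95% interval -4.45 to 0.21) and Pck1 0.53 (-0.36 to 1.41). The intervals of these transcripts were all wider than that of Insr.

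**Figure D5:**
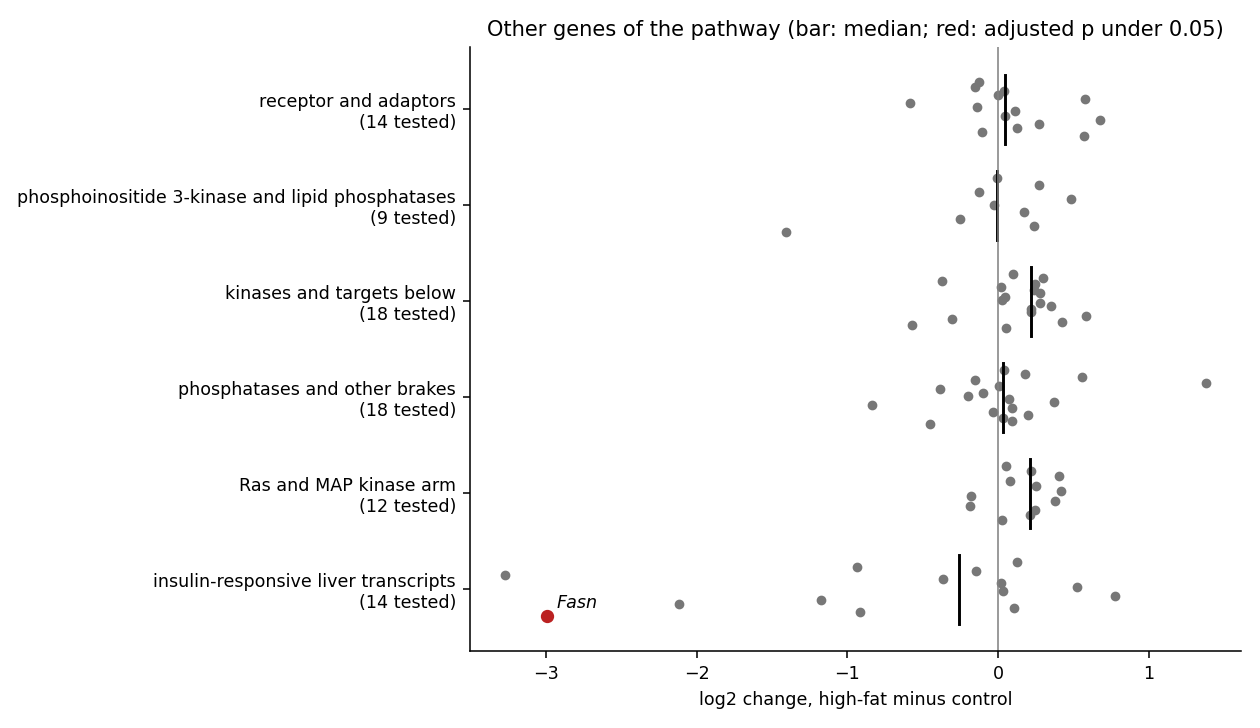
Log2 change (high-fat minus control) of each tested gene in the 5 signalling lists and the list of insulin-responsive liver transcripts, with 1 point per gene by its brightest probe and the list median as a bar. Fasn, in red, is the only gene past an adjusted p of 0.05, and the medians of the 5 signalling lists lie between -0.007 and 0.22.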

How the data were processed

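The authors' deposited spot intensity values come from Agilent Feature Extraction 10.7.3.1 with its background subtraction, per the file headers. Per the labels' protocols, 500 ng of TRIzol RNA was copied from an oligo-dT primer and labelled with Cy3. Outlier spots were left out, the log2 processed signals of a probe's spots were averaged, and each array was scaled to its own 75th percentile, taken over the 48.0% of probes that every array detected well above background. Probes detected in this way on 4 arrays or more (31546) entered a limma fit (version 3.58.1, R 4.3.3), p-values were adjusted by Benjamini-Hochberg, and a gene stood for its brightest tested probe. The fit was tested on simulated data.

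The authors' deposited log2 table, an alternative, correlated at 0.999 or more with the scanner values of each array. Its column medians were -3.10, -3.21, -3.14 and -3.17 for controls and -3.14, -3.20, -3.16 and -3.20 for high-fat arrays. It is on a log2 scale, higher for brighter spots and not centred per probe; its scaling is not given in the sources used here.

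The members and lists were chosen with earlier results of these data known. The 8 arrays shared 1 slide of 2 rows, and each row held 2 arrays per diet. Of the 22 member probes, 18 carried an accession that matched a RefSeq gene (GRCr8 table, used for names), each with the member's symbol. Named genes were every member, the 3 smallest p values of each list, any gene past the threshold, the partners of Irs2, and the 3 patterns most like Insr, Irs1 and Irs2. Some of the values this rule selects are not reported here. Alternatives changed background correction, scaling, filter, variance model, array weights, blocks, probe and arrays. The relations with clock genes and the use of the other Irs2 probe were added after seeing the data.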

Additional observations from a re-analysis of the deposited data

Results flagged for a closer look

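Of 102 sets of 4 values of the members and named genes, 3 held an array far from the others of its group, where chance gives about 1 in 20. Pik3cb was at -4.57 in control replicate 4 and between -5.00 and -4.95 in the other controls. Irs4 was at -6.35 in high-fat replicate 1 and between -6.70 and -6.68 in the others. Enpp1 was at 0.776 in high-fat replicate 3 and between 1.02 and 1.07 in the others. No member was among them.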

How the results depend on the processing

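Of 239 alternative values of the 10 members' changes, 32 had the opposite sign. Apart from the means over probes, which were left out of this count, 0 passed the threshold (smallest adjusted p = 0.188, for Akt2, limma). Insr, Irs1, Foxo1 and Grb10 kept their sign in all alternatives run. Under other scalings, normexp and the values of the authors, 8 of 10 did, the exceptions being Pik3r1 (0.00079 after normexp) and Ptpn1 (0.0015 after quantile normalization). Within slide row 1 the change was -0.21 for Irs2, 0.053 for Akt2 and 0.17 for Ptpn1, and within row 2 it was 0.71 for Pik3r1, -0.31 for Akt1 and 0.046 for Grb14. Array weights gave 0.10 for Pik3r1 and -0.038 for Akt1, and leaving out the 2 dimmest arrays gave 0.24 and -0.12. Other probes gave -0.093 for Irs2, 0.18 for Pik3r1 and 0.043 and 0.23 for Grb14, and the mean over probes gave -0.028, 0.086 and 0.065. Leaving out 1 array gave -0.23 to 0.30 for Irs2, -0.22 to 0.27 for Pik3r1, -0.12 to 0.12 for Akt1, -0.14 to 0.021 for Grb14 and -0.087 to 0.10 for Ptpn1. For the pairs it gave -0.11 to 0.71 for Irs2 minus Irs1, -0.62 to 0.12 for Irs2 minus Foxo1 and -0.35 to 0.0027 for Ptpn1 minus Insr. Irs2 minus Irs1 was -0.15 within row 1, and Irs2 minus Foxo1 was 0.20 within row 2 and 0.38 without the 2 dimmest arrays. The correlation of Irs2 with Insr was -0.11 after normexp and -0.072 within row 2, with Per2 and Nr1d1 0.30 and 0.40 within row 2, and with Cry2 0.050 within row 1. The causes were not tested.

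Of all tested probes 286 were called. The count was 527 with probes above background on all 8 arrays, 543 with a trended and robust variance, 10 without the filter on dim probes, 167 with slide row as a block, 25 without the 2 dimmest arrays and 23 to 154 with 1 array left out. Within rows 1 and 2, with 2 arrays of each diet, it was 0 and 0 by limma (2572 and 4043 at an unadjusted p under 0.05). Counted by any tested probe, 1 gene of the receptor and adaptor list, Shc1, was called. Deviations of same-numbered arrays correlated at -0.12, 0.26, 0.23 and 0.01. No test was run on these values, and they cannot show whether the numbers pair the samples. With the replicate number as a block 1 probe was called, and no member. A dimmer Irs1 probe and a dimmer Akt2 probe were well above background on 7 of 8 arrays, and a Grb10 probe on 0.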
